A study of Mus musculus with 13 samples.

Results

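The genes Tnfrsf13b, Tnfrsf13c and Tnfrsf17 encode TACI, the BAFF receptor and BCMA, the receptors through which B lineage cells sense the cytokines BAFF and APRIL. They were chosen by symbol, 3 of the 23337 gene symbols counted, and all 3 passed the filter on low counts that left 13574 genes for testing. RNA was sequenced from mouse splenic B cells in 13 libraries. Control cells carried Regnase-1 +/+ alleles and deficient cells Regnase-1 f/f alleles, and both carried hCD20TamCre, a tamoxifen-inducible Cre driven by the human CD20 promoter and so directed to B cells. Naive cells were left untreated in 4 control and 3 deficient libraries. In 3 further libraries of each genotype the B cell receptor (BCR) had been engaged with anti-IgM F(ab')2 for 4 h. The cells had been purified by negative selection with CD43 beads, which removes plasma cells and B-1 cells together with most non-B cells. The labels used here do not give the animals' age, the time since Cre induction or the share of cells with a deleted allele.

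BAFF and APRIL are ligands of the tumour necrosis factor family. The BAFF receptor binds BAFF alone and sustains mature B cells, chiefly by releasing the kinase NIK from TRAF3-dependent degradation so that p100 can be processed to p52 in the non-canonical NF-kB pathway. TACI binds both ligands, is abundant on marginal zone and activated B cells, and in mice is needed for antibody responses to T cell-independent antigens while limiting B cell numbers. BCMA also binds both ligands, APRIL more tightly, and maintains long-lived plasma cells. Regnase-1, encoded by Zc3h12a, is an endoribonuclease that degrades selected messenger RNAs.

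In the mm10 build, GENCODE vM21 places Tnfrsf13b on chromosome 11 from 61126755 to 61149372 on the plus strand (ENSMUSG00000010142.12), with 5 exons in its longest transcript. A processed pseudogene on the opposite strand, Gm12269, lies within an intron and overlaps 0 exonic bases. Tnfrsf13c lies on chromosome 15 from 82221743 to 82224369 on the minus strand (ENSMUSG00000068105.11) and has 3 exons. Tnfrsf17 lies on chromosome 16 from 11313812 to 11320074 on the plus strand (ENSMUSG00000022496.5) and also has 3 exons. No other annotated gene overlaps Tnfrsf13c or Tnfrsf17.

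The 250 bases before each annotated start are shown as a description of the genes, and their part in the transcript levels was not tested. They come from RefSeq (GRCm38.p6) and lie at chr11:61126505-61126754 (plus strand), chr15:82224381-82224630 (minus strand) and chr16:11313559-11313808 (plus strand), each written 5′ to 3′ on its gene's strand. Capitals mark matches, on either strand, to the NF-kB motif GGGNNNNNCC.
Tnfrsf13b: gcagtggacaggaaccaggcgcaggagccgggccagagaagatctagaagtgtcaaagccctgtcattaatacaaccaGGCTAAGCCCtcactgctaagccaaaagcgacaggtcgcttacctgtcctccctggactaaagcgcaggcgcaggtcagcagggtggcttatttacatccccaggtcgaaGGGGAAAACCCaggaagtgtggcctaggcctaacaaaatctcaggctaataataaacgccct
Tnfrsf13c: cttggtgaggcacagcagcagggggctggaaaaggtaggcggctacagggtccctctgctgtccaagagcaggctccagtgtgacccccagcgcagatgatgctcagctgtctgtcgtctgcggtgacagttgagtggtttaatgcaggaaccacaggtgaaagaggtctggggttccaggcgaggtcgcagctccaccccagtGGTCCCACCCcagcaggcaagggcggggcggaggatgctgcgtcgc
Tnfrsf17: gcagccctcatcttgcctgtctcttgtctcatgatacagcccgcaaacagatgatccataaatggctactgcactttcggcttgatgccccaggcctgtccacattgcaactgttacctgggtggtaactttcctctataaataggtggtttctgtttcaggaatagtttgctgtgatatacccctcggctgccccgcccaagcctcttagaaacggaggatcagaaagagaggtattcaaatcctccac
The Tnfrsf13b window held matches starting 172, 62 and 61 bases before the start, of which the last 2 overlap and the last reads as a match on both strands. The Tnfrsf13c window held a match starting 46 bases before the start, and the Tnfrsf17 window held 0. Such a match was present in 46.0% of all 32536 windows of this length, so it is a common sequence. The octamer ATGCAAAT, found in 1.62% of windows, and the AP-1 motif TGANTCA, found in 6.73%, matched 0 of the 3 windows on either strand. G and C made up 54.0% of the Tnfrsf13b window, 63.2% of the Tnfrsf13c window and 49.2% of the Tnfrsf17 window.

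Library totals ran from 21407724 to 33244755 counts. Levels are given as CPM, counts scaled to a common depth with TMM factors, and 3 counts correspond to 0.0831 to 0.136 CPM. Purity of the B cells was checked with marker lists. The 10 pan-B cell markers summed to between 6151 and 7362 CPM in unstimulated libraries, against 128 to 180 CPM for the T and NK cell list, 155 to 522 CPM for the myeloid list and 245 to 1570 CPM for the erythroid list. Neutrophil markers differed between libraries, with the highest sums, 366 and 369 CPM, in control unstimulated library 4 and deficient unstimulated library 1. Zc3h12a, the targeted gene, stood at 121 to 131 CPM in control and 89.2 to 111 CPM in deficient unstimulated libraries, and at 147 to 157 against 92.6 to 113 CPM after stimulation. Reads outside the deleted part still count, so this checks the labels only in part. Read from sex-linked genes, control 1 and deficient 2 and 3 were male and the others female.

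Per length, the BAFF receptor transcript was the most abundant of the 3 in every group and the BCMA transcript the least. Divided by the length of all exons of a gene, the level of Tnfrsf13c in control unstimulated cells was 135 ± 9.53 CPM per kb (SD, n = 4). Tnfrsf13b stood at 7.96 ± 0.403 CPM per kb in the same libraries, and Tnfrsf17 at 0.577 ± 0.142 CPM per kb. The order was the same in the other 3 groups, where the level of Tnfrsf13c ran from 145 to 267 CPM per kb, that of Tnfrsf13b from 6.77 to 14.0 and that of Tnfrsf17 from 0.228 to 0.409.

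**Figure D1:**
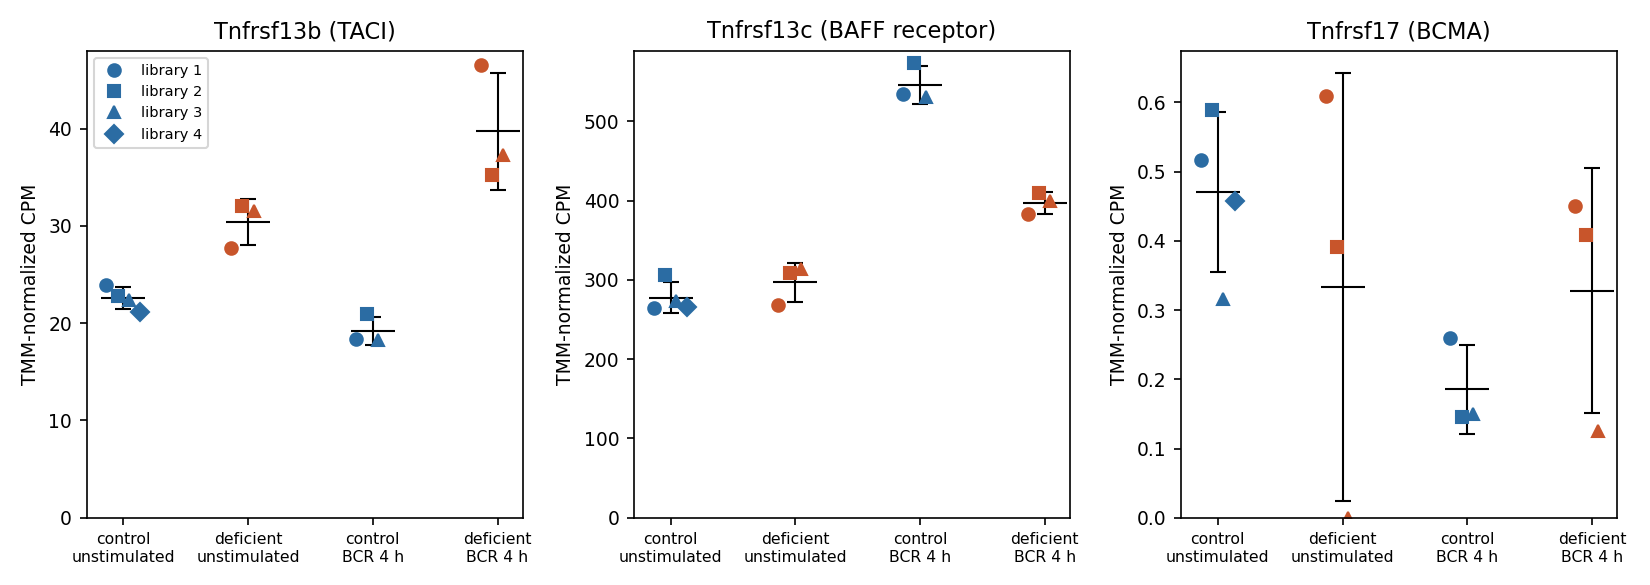
TMM-normalized CPM (vertical axis, linear from 0) of each receptor gene in the 13 libraries; points are libraries, with the shape giving the library number, and lines and bars are the mean and SD of each group. Tnfrsf13b was highest in the 3 deficient stimulated libraries, Tnfrsf13c in the 3 control stimulated libraries, and Tnfrsf17 stayed at or under 0.609 CPM in all 13.

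Stimulation raised the BAFF receptor transcript in both genotypes, 1.97-fold in control and 1.34-fold in deficient cells. In control cells, the level of Tnfrsf13c was 264, 306, 273 and 266 CPM without stimulation and 535, 573 and 530 CPM after it. In deficient cells it was 269, 309 and 314 CPM without stimulation and 383, 410 and 399 CPM after it. Every stimulated library lay above every unstimulated library. On the log2 scale the rise was 0.98 ± 0.07 (SE) in control cells (adjusted p = 3.11e-09) and 0.42 ± 0.07 in deficient cells (adjusted p = 0.000109), by the quasi-likelihood test of edgeR, adjusted after Benjamini and Hochberg over all 13574 genes. Both rises held in all 17 and 16 alternatives run for them, with differences between 0.91 and 1.05 in control and between 0.33 and 0.48 in deficient cells. Calls in these comparisons were common: 60.3% of genes tested were called in control cells (28.5% higher, 31.8% lower) and 57.9% in deficient cells (28.3% higher, 29.6% lower). A call upon stimulation therefore does not set Tnfrsf13c apart.

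The TACI transcript rose upon stimulation in deficient cells, while in control cells its difference had the opposite sign and missed the threshold. The level of Tnfrsf13b in control cells was 23.9, 22.8, 22.4 and 21.2 CPM without stimulation and 18.4, 20.9 and 18.3 CPM after it. In deficient cells it was 27.7, 32.1 and 31.5 CPM without stimulation and 46.6, 35.3 and 37.3 CPM after it. The ranges did not overlap in either genotype, with the stimulated libraries below the unstimulated ones in control cells and above them in deficient cells. How many of all genes separate in this way was not counted. Tnfrsf13b rose by 0.38 ± 0.10 (SE, log2; 1.30-fold) in deficient cells, with an edgeR adjusted p of 0.00473, and this call held in all 16 alternatives, between 0.25 and 0.47. Over all genes 57.9% were called in that comparison (28.3% higher), and 37.2% had a smaller absolute change. The call therefore does not set Tnfrsf13b apart. In control cells the difference was -0.23 ± 0.10 (0.851-fold) and missed the threshold (edgeR adjusted p = 0.0525). With the library number as a replicate block within genotype it passed, at -0.27 (adjusted p = 0.0383). DESeq2 gave an adjusted p of 0.173 for the same comparison. There the median log2 difference over all genes was -0.13 in the edgeR fit, and 22.9% of genes had a smaller absolute change than Tnfrsf13b.

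Followed within a library number, the stimulated level of Tnfrsf13b was below its unstimulated partner in all 3 control pairs, by log2 differences of -0.38, -0.13 and -0.29. In the 3 deficient pairs it was above the partner, by 0.75, 0.14 and 0.24. The share of all genes with such opposite signs was not counted. Deficient pair 1 gave the largest of these differences, and without that pair the deficient rise was 0.25 (adjusted p = 0.0359). Neutrophil markers in the deficient libraries of pair 1 summed to 369 CPM unstimulated and 257 CPM stimulated, against 33.2 to 57.5 CPM in the other deficient libraries. Germinal centre B cell markers summed to 909 and 785 CPM in that pair, against 257 to 531 CPM in the other deficient libraries. Within each state that pair also had the highest deficient sum of myeloid markers. These were 522 CPM against 155 and 228 CPM unstimulated, and 191 CPM against 83.4 and 98.8 CPM stimulated. Both its sums of erythroid markers, 1570 and 1460 CPM, lay above those of the other deficient libraries, at 154 to 1251 CPM, and it was the 1 female deficient pair. The part of these differences in the Tnfrsf13b value of that pair was not tested. For Tnfrsf13c the within-pair log2 differences were 1.02, 0.91 and 0.96 with Regnase-1. The deficient pairs gave 0.51, 0.41 and 0.35, all below the control pairs. How many of all genes have pairs that separate by genotype was not counted either.

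**Figure D2:**
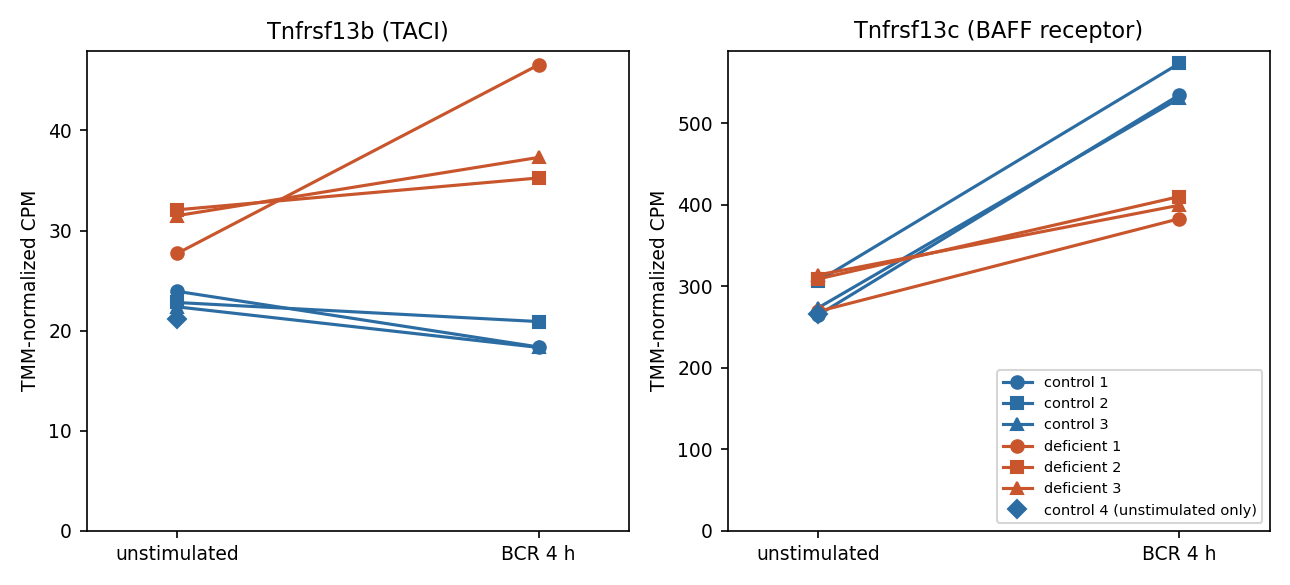
TMM-normalized CPM (vertical axis, linear from 0) of Tnfrsf13b and Tnfrsf13c without and with 4 h of BCR stimulation; lines join libraries of the same number and genotype, and control 4 has no stimulated partner. Lines for Tnfrsf13b go down in the 3 control pairs and up in the 3 deficient pairs, and lines for Tnfrsf13c go up in all 6 with the steeper slopes in control cells.

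Whether the responses differed between genotypes was tested as an interaction. For Tnfrsf13c the response in deficient cells minus that in control cells was -0.56 ± 0.10 (SE, log2), with an edgeR adjusted p of 0.0788, and the gene ranked 6 by p among all genes tested. With the replicate block within genotype the difference was -0.54 ± 0.07 and passed the threshold (adjusted p = 0.000656). For Tnfrsf13b it was 0.62 ± 0.14 (adjusted p = 0.268, rank 31), 0.64 with the block (adjusted p = 0.0741), and 0.58 by DESeq2, which called it (adjusted p = 0.0266). The interaction called 1 gene in all, 0.00737% of those tested (0.00737% higher and 0% lower), and 68 genes with the block (48 higher, 20 lower); with upper-quartile factors it called 8 higher and 4 lower. DESeq2 called 38 genes, and 510 genes had an unadjusted edgeR p under 0.05. The Tnfrsf13c difference thus passed or missed according to the fit, while its size lay between -0.62 and -0.52 in all 22 alternatives.

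In stimulated cells, deficient libraries held 2.07 times the control level of the TACI transcript and 0.728 times that of the BAFF receptor transcript. Tnfrsf13b was higher by 1.05 ± 0.11 (SE, log2; 2.07-fold; edgeR adjusted p = 5.34e-05), and the lowest deficient library, at 35.3 CPM, lay above the highest control library, at 20.9 CPM. Tnfrsf13c was lower, at a log2 difference of -0.46 ± 0.07 (edgeR adjusted p = 0.00257), with 383 to 410 CPM in deficient against 530 to 573 CPM in control libraries. This comparison called 2.01% of genes (0.751% higher, 1.26% lower), and 2 of the 3 receptor genes, in opposite directions. By p, Tnfrsf13b ranked 13 and Tnfrsf13c 65 among the 13574 genes. Both calls held in all 16 alternatives, at 0.93 to 1.13 for Tnfrsf13b and -0.48 to -0.42 for Tnfrsf13c. Without deficient pair 1 the differences were 0.93 (adjusted p = 3.33e-05) and -0.42 (adjusted p = 0.00119).

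In unstimulated cells 0 of the 3 receptor genes passed by edgeR (1 at an unadjusted p under 0.05, and 1 called by DESeq2, Tnfrsf13b in both cases), in a comparison that called 0.324% of genes (0.125% higher, 0.199% lower). Those are 17 genes higher and 27 lower; DESeq2 size factors gave 21 and 20, and upper-quartile factors 36 and 34. At an unadjusted edgeR p under 0.05 there were 1171 genes, and DESeq2 called 160. Tnfrsf13b stood 1.35-fold above control, at 0.43 ± 0.10 (SE, log2; edgeR adjusted p = 0.0985), with deficient libraries from 27.7 to 32.1 CPM and control libraries from 21.2 to 23.9 CPM. Its ranges did not overlap, though the share of all genes of which this holds was not counted. The difference passed in 7 of 17 alternatives, DESeq2 among them (0.45, adjusted p = 0.00217). For Tnfrsf13c the difference was 0.10 ± 0.07 (95% interval -0.05 to 0.25, adjusted p = 0.747), and the ranges overlapped, at 269 to 314 CPM in deficient and 264 to 306 CPM in control libraries.

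Ordered by level, Tnfrsf13b was lowest in control stimulated cells (19.2 ± 1.48 CPM, SD, n = 3), then in control unstimulated (22.6 ± 1.14, n = 4), deficient unstimulated (30.4 ± 2.37, n = 3) and deficient stimulated cells (39.7 ± 6.02, n = 3). Control stimulated against control unstimulated cells, and control against deficient unstimulated cells, missed the threshold. Their ranges did not overlap, but how many of all genes separate in this way was not counted, so this does not stand in for a call. Deficient unstimulated against deficient stimulated cells passed. Tnfrsf13c was lowest in control unstimulated (277 ± 19.5 CPM, n = 4) and deficient unstimulated cells (297 ± 24.6, n = 3), which did not differ beyond their spread. It was higher in deficient stimulated (397 ± 13.7, n = 3) and highest in control stimulated cells (546 ± 23.7, n = 3). The gene-wise biological coefficient of variation was 0.111 for Tnfrsf13b and 0.0749 for Tnfrsf13c, against a common value of 0.175.

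**Figure D3:**
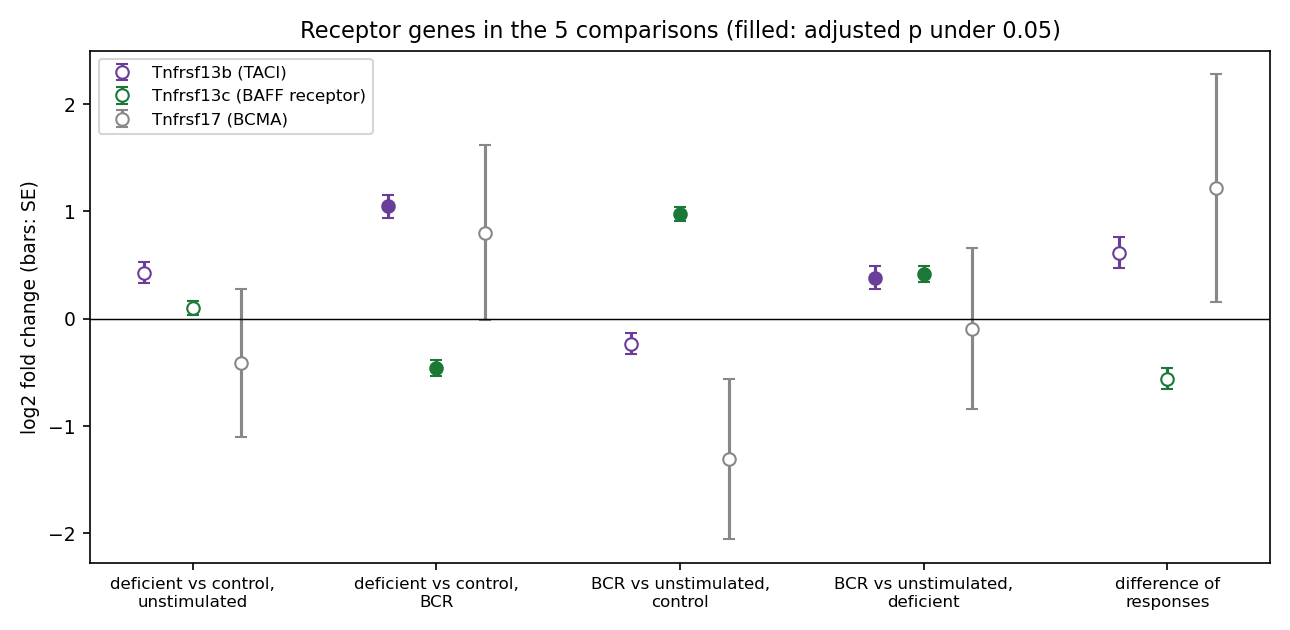
Log2 fold change of each receptor gene (vertical axis) in the 5 comparisons, with bars of 1 SE; filled points passed an adjusted p of 0.05 in the edgeR fit of all 13 libraries. Filled points are Tnfrsf13b at 1.05 and Tnfrsf13c at -0.46 for the genotypes after stimulation, Tnfrsf13c at 0.98 and 0.42 for the responses, and Tnfrsf13b at 0.38 for the deficient response.

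A ratio of the 2 transcripts within a library does not depend on the scaling between libraries. Per kb of exon, control unstimulated libraries held 15.3, 18.6, 16.9 and 17.4 Tnfrsf13c counts for each Tnfrsf13b count, and control stimulated libraries 40.3, 38.0 and 40.1. Deficient libraries held 13.4, 13.3 and 13.8 without stimulation and 11.4, 16.1 and 14.8 after it. Control stimulated libraries thus stood apart from the other 10, and the deficient ranges before and after stimulation overlapped.

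As log2 of Tnfrsf13b over Tnfrsf13c, the control response was -1.21, with a two-sided exact permutation p of 0.0571, the smallest that 4 against 3 libraries allow. The deficient response was -0.05 (exact permutation p = 0.9), where 3 against 3 cannot go below 0.1. Its 3 pairs gave 0.24, -0.27 and -0.10, and the 3 control pairs -1.40, -1.03 and -1.25. Between genotypes the log2 ratio was higher in deficient cells by 0.33 without stimulation (exact permutation p = 0.0571, the smallest possible) and by 1.50 after it (exact permutation p = 0.1, the smallest possible). Over both genotypes together the response was -0.61 (exact permutation p = 0.117), and -0.64 over the 6 pairs (exact sign-flip p = 0.0938). Adjusted over these 5 contrasts, which share libraries, the p-values were 0.143, 0.9, 0.143, 0.146 and 0.146 in the order given. Without deficient stimulated library 1 the pooled response was -0.81 (exact permutation p = 0.0455).

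**Figure D4:**
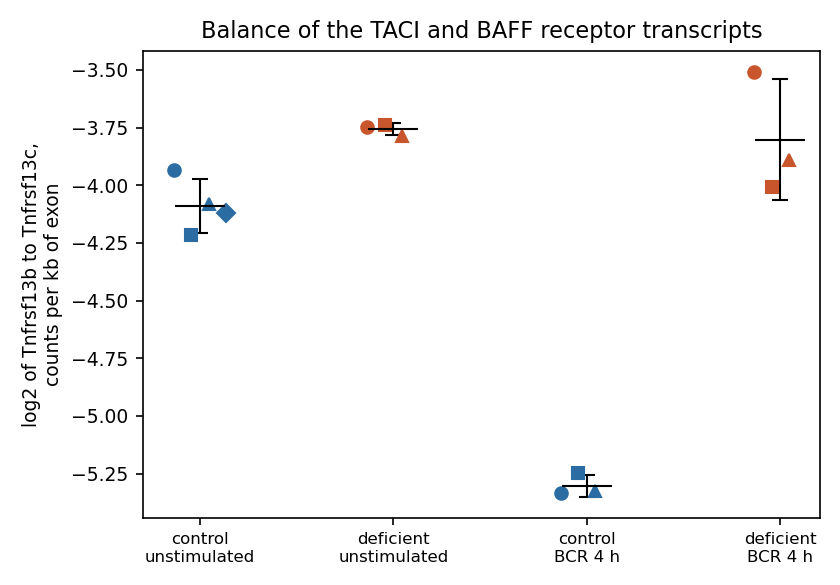
Log2 of Tnfrsf13b over Tnfrsf13c counts per kb of exon (vertical axis) in each library; points are libraries, and lines and bars are the mean and SD of each group. The 3 control stimulated libraries lie near -5.30, and the other groups have means from -4.09 to -3.76.

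The BCMA transcript was close to the limit of detection. Tnfrsf17 had 14, 17, 9 and 14 counts in control unstimulated and 22, 13 and 0 counts in deficient unstimulated libraries. After stimulation it had 8, 4 and 4 counts in control and 10, 13 and 3 counts in deficient libraries. The 0 in deficient unstimulated library 3, the library with the lowest total, allows up to 0.136 CPM at 3 counts, and these limits cover counting error only. No comparison passed in the fit of all libraries: the smallest edgeR adjusted p was 0.146, for the control response of -1.31 ± 0.75 (SE, log2), which passed when only the 2 groups compared were fitted (-1.26, adjusted p = 0.0424). Between genotypes the differences were -0.41 ± 0.69 (95% interval -1.97 to 1.14) without stimulation and 0.80 ± 0.81 (-1.04 to 2.64) after it. The deficient response was -0.09 ± 0.75, and the difference of responses 1.22 ± 1.06 (95% interval -1.19 to 3.63). Differences of any size within these intervals remain compatible with the counts. The width of the intervals reflects the spread between libraries as well as the low counts.

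Of the 5 genes nearest to Tnfrsf17 across libraries, 2 were plasma cell markers, but no such marker was among the 5 nearest within groups. Among genes whose mean log2 CPM reached 2, the highest Pearson r of log2 CPM with Tnfrsf17 over 13 libraries were those of Cyb5r1 (0.824), Txndc5 (0.753), Igj (0.738), Taf12 (0.736) and Dock4 (0.714). Txndc5 is a protein disulfide isomerase of the endoplasmic reticulum and Igj the joining chain of polymeric antibody, and both were on that marker list. The share of such markers among the 9083 genes ranked was not counted. As deviations from the group mean, the 5 nearest genes were Cyb5r1, Zfp524, Med19, Fxyd5 and Pck2. In deficient unstimulated libraries 1, 2 and 3 the level of Igj was 404, 178 and 113 CPM while Tnfrsf17 had 22, 13 and 0 counts. Sdc1, also a plasma cell marker, went the other way, at 19.9 CPM in library 1, 31.4 CPM in library 2 and higher still in library 3. In control cells Igj ran from 202 to 315 CPM without stimulation and from 208 to 316 CPM after it. Tnfrsf17 had 9 to 17 counts in the same unstimulated libraries and 4 to 8 in the stimulated ones. Whether Tnfrsf17 follows plasma cells was not tested. The points share libraries and scaling, and in bulk RNA fewer cells of a type and less RNA per cell cannot be told apart.

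By the same measure Tnfrsf13b was nearest to Tnfaip8 (r = 0.944), Krt222 (0.896), Hemk1 (0.881), Nek7 (0.881) and Dtx4 (0.874). Genes named in this way were picked by r in these same libraries, so a likeness in group levels follows from the choice. Tnfaip8, a TNF-induced regulator of cell survival, stood at 53.0 to 56.4 CPM in control and 67.9 to 71.8 CPM in deficient unstimulated libraries. After stimulation it stood at 48.2 to 51.2 and 73.0 to 85.1 CPM. Tnfrsf13c was nearest to Myo1g (r = 0.976), Gpr183 (0.975), Dusp22 (0.974), AI848285 (0.974) and Appl1 (0.972). Gpr183, the oxysterol receptor EBI2 that positions activated B cells, stood at 70.6 to 87.9 CPM in control unstimulated libraries. After stimulation it was at 283 to 324 CPM in control and 172 to 215 CPM in deficient libraries. Within groups, as deviations from the group mean, the nearest gene was BC003266 (0.909) for Tnfrsf13b, Atad3a (0.974) for Tnfrsf13c and again Cyb5r1 (0.959) for Tnfrsf17. Between Tnfrsf13b and Tnfrsf13c r of log2 CPM was -0.19 over the same 13 libraries, and 0.21 as deviations from the group mean, of opposite sign. For Tnfrsf13b with Tnfrsf17 these were -0.01 and -0.09, and for Tnfrsf13c with Tnfrsf17 both were -0.39.

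The ligand genes were barely expressed in these cells. The level of Tnfsf13b, which encodes BAFF, stayed between 0.0347 and 0.780 CPM, that of Tnfsf13 (APRIL) between 0 and 0.316 CPM, and that of Tnfsf12 (TWEAK, the ligand encoded next to APRIL) between 0 and 1.02 CPM. Tnfsf13 did not pass the filter on low counts. Tnfrsf12a, the TWEAK receptor, stood between 3.46 and 6.98 CPM. Of the 5 genes of this list tested, 0 rose and 2 fell upon stimulation in each genotype (median log2 differences -0.36 in control and -0.44 in deficient cells, against -0.13 and -0.11 over all genes). With 31.8% and 29.6% of all genes called lower, 2 of 5 does not set the list apart. Both that fell encode heparan sulfate proteoglycans, to which APRIL binds: Sdc1, syndecan-1 and a plasma cell marker, at -1.09 ± 0.15 (SE, log2) in control and -1.18 ± 0.16 in deficient cells, and Sdc4, syndecan-4, at -0.36 ± 0.06 and -0.44 ± 0.07. Sdc1 was also lower in deficient than in control stimulated cells (-0.68 ± 0.16, edgeR adjusted p = 0.0486), with 11.7 to 13.8 CPM against 18.8 to 22.0 CPM, a call lost with each of the 6 libraries left out in turn.

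Adaptors and TRAF proteins, which carry the receptors' signals, went both ways upon stimulation. Of 12 tested, 3 rose and 7 fell in control cells (median -0.20), and 3 rose and 7 fell in deficient cells (median -0.19). Over all genes 28.5% were called higher and 31.8% lower in control cells, and 28.3% and 29.6% in deficient cells. The deficient count includes Birc3, which kept its call in 5 of 16 alternatives. Traf1 rose by 1.37 ± 0.07 (SE, log2) in control and 1.27 ± 0.08 in deficient cells. Traf3ip3, a partner of TRAF3, stood at -1.86 ± 0.09 and -1.97 ± 0.09, and Traf5, an adaptor of several TNF receptors, at -1.75 ± 0.11 and -1.51 ± 0.12. Myd88, the Toll-like receptor adaptor that TACI also uses, rose by 0.36 ± 0.07 and 0.50 ± 0.07. In stimulated cells 2 of the 12 were lower with Regnase-1 deficiency and 0 higher (median -0.04, against 0.00 over all genes, of which 1.26% were called lower and 0.751% higher): Traf1 at -0.37 ± 0.08 (edgeR adjusted p = 0.0191) and Otud7b, a deubiquitinase of TRAF3, at -0.32 ± 0.07 (edgeR adjusted p = 0.0307). Traf1 kept its call in 2 and Otud7b in 1 of 6 settings with a library left out. In unstimulated cells 0 of the 12 were called between genotypes by edgeR (3 at an unadjusted p under 0.05), and DESeq2 called 1 lower.

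In the non-canonical NF-kB list 2 of 9 rose and 5 fell upon stimulation in each genotype (medians -0.17 and -0.15). Over all genes 28.5% were called higher and 31.8% lower in control cells, and 28.3% and 29.6% in deficient cells. Traf2, Traf3, Birc2, Birc3 and Otud7b are also in the adaptor list. All of these but Traf2 fell, so their falls are counted in both lists. Birc3 is again among those that fell in deficient cells, with its call kept in 5 of 16 alternatives. Nfkb2, which encodes p100, rose by 0.53 ± 0.05 (SE, log2) in control and 0.68 ± 0.06 in deficient cells, and its partner Relb by 0.24 ± 0.05 and 0.22 ± 0.06. Map3k14, which encodes NIK, stood at -0.70 ± 0.09 and -0.72 ± 0.09, and Traf3, which restrains NIK, at -0.29 ± 0.05 and -0.24 ± 0.05. Between genotypes edgeR called 0 of 9 without stimulation (4 at an unadjusted p under 0.05) and 1 after it, Otud7b, already counted among the adaptors. Over all genes the shares called were 0.324% and 2.01%.

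Membrane proteases and gamma-secretase subunits, enzymes that release receptors of this family from the cell surface, included 8 genes tested. Upon stimulation 1 rose and 4 fell in control cells, and 1 rose and 5 fell in deficient cells (medians -0.18 and -0.15). Over all genes 28.5% were called higher and 31.8% lower in control cells, and 28.3% and 29.6% in deficient cells. Whether the list differs from these shares was not tested. Of the 5 that fell in deficient cells, Adam17 and Aph1a each kept the call in 6 of 16 alternatives and 2 of 6 settings with a library left out, and Aph1b in 11 of 16 and 2 of 6. The gene that rose was Adam10, which also sheds CD23, by 0.73 ± 0.07 (SE, log2) in control and 0.71 ± 0.07 in deficient cells. Psen2, a catalytic subunit of gamma-secretase, fell by 0.78 and 0.85. In stimulated cells Adam17, the protease that releases TNF, was lower with Regnase-1 deficiency (-0.26 ± 0.05, edgeR adjusted p = 0.00673), at 124 to 129 CPM against 148 to 154 CPM, and it was the 1 gene of 8 called. That comparison called 2.01% of all genes.

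Of the survival genes and surface molecules known to respond to BAFF, more rose than fell upon stimulation. Of 12 tested, 8 rose and 4 fell in control cells (median 0.69), and 7 rose and 3 fell in deficient cells (median 0.71), against 28.5% higher and 31.8% lower over all genes in control and 28.3% and 29.6% in deficient cells. Bcl2l1, which encodes the anti-apoptotic BCL-XL, rose by 2.99 ± 0.14 (SE, log2) in control and 2.69 ± 0.16 in deficient cells, and the kinase gene Pim1 by 1.42 ± 0.11 and 1.29 ± 0.12. Bcl2a1d rose by 2.78 ± 0.11 and 2.33 ± 0.12, although reads of the near-identical Bcl2a1 copies may be split between them. Bcl2l11, which encodes the pro-apoptotic BIM and so acts against survival, rose by 0.85 ± 0.10 and 0.83 ± 0.10, while the anti-apoptotic Mcl1 fell in both (-0.36 ± 0.05 and -0.35 ± 0.06). Bcl2, also anti-apoptotic, fell in control cells (-0.97 ± 0.12); in deficient cells it stood at -0.28 ± 0.12 (edgeR adjusted p = 0.0555). Cr2, the complement receptor CD21, rose by 1.89 ± 0.16 and 2.31 ± 0.18, while Icosl, the ligand of ICOS, stood at -2.82 ± 0.19 and -3.13 ± 0.20.

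Between genotypes 1 of these 12 was higher and 1 lower in stimulated cells, and 0 in unstimulated cells by edgeR, where 4 had an unadjusted p under 0.05 and DESeq2 called 2 higher. Over all genes edgeR called 0.324% in unstimulated cells, and 0.751% higher and 1.26% lower in stimulated cells. Bcl2, the anti-apoptotic gene, was higher by 1.17 ± 0.12 (SE, log2; edgeR adjusted p = 8.2e-05), and it was called in all 16 alternatives. Control stimulated libraries held 16.3, 12.7 and 16.4 CPM of it, and the deficient ones 33.3, 38.4 and 30.1 CPM. Without stimulation its level ran from 26.9 to 33.0 CPM with Regnase-1 and from 36.8 to 43.5 CPM without. As with Tnfrsf13b, the ranges of the genotypes did not overlap in either state, and how many of all genes separate in this way was not counted. Fcer2a, which encodes CD23, was lower after stimulation (-0.39 ± 0.09, edgeR adjusted p = 0.0262), a call lost without deficient pair 1 and kept in 2 of 6 settings with a library left out. For the difference of responses edgeR called 0 genes of the 5 pathway lists; of the survival list 3 had an unadjusted p under 0.05, and DESeq2 called 1.

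**Figure D5:**
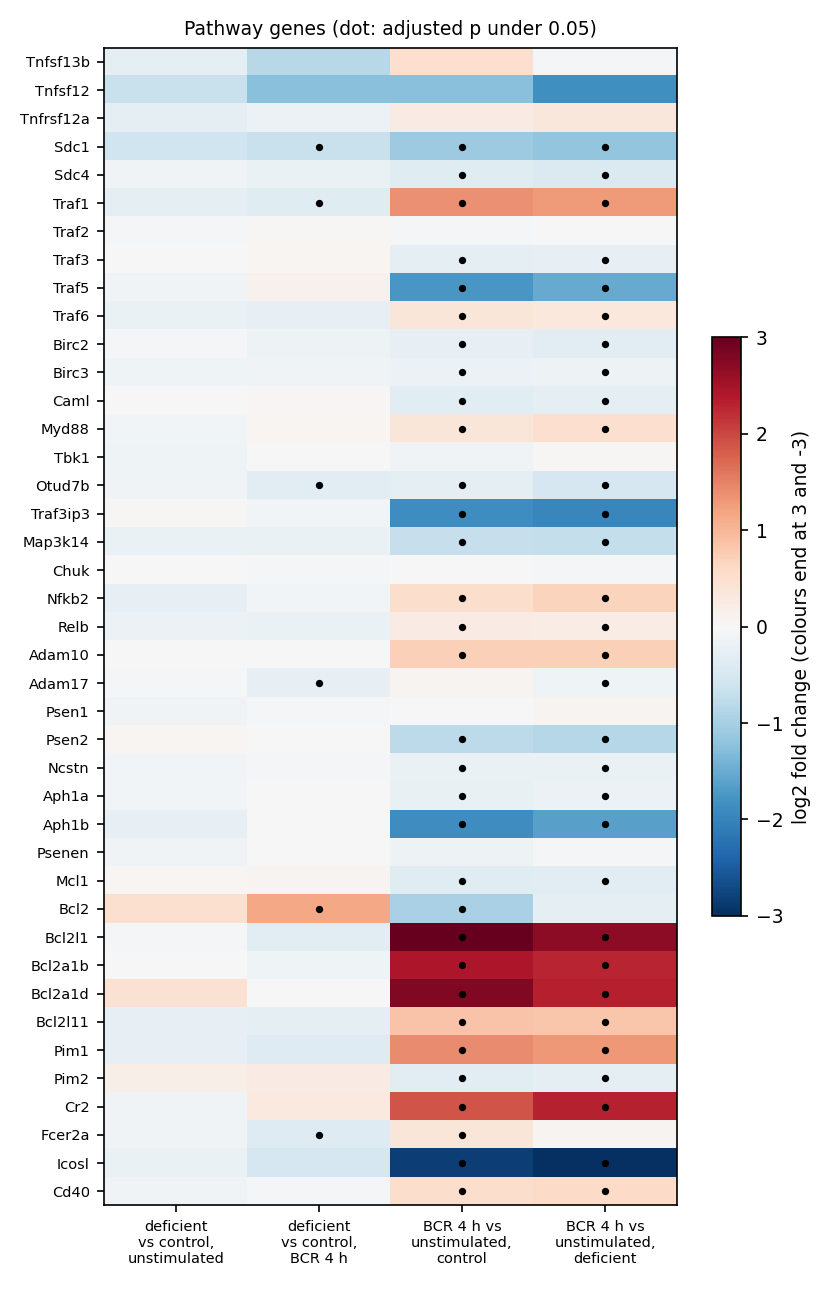
Log2 fold changes (colour, red higher and blue lower, ending at 3 and -3) of the tested genes of the ligand, adaptor, non-canonical NF-kB, cleaving enzyme and survival lists in 4 comparisons; black dots mark an adjusted p under 0.05. Dots fill most rows for the responses to stimulation, whereas the genotype comparisons hold 0 dots without stimulation and 6 with it, of which Bcl2 is the 1 higher.

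Marker lists of B cell types that differ in TACI were read beside these results. The 8 marginal zone markers summed to 681 to 838 CPM in control and 672 to 848 CPM in deficient unstimulated libraries. After stimulation they summed to 989 to 1185 and 1110 to 1285 CPM, with overlapping ranges in both states. The list holds Cr2, which stimulation raised by 1.89 and 2.31 on the log2 scale, so the stimulated sum does not measure marginal zone cells alone. By edgeR 0 of the 8 were called between genotypes, and 2 had an unadjusted p under 0.05 in each state. The B-1 cell list summed to 144 to 204 and 152 to 188 CPM without stimulation. After it the sums were 392 to 431 and 360 to 373 CPM, ranges that did not overlap. By edgeR 0 of 6 genes were called in either state, with 1 (unstimulated) and 0 (stimulated) at an unadjusted p under 0.05. Of the 10 plasma cell markers tested 0 rose and 2 fell with Regnase-1 deficiency in stimulated cells, Sdc1 and Ell2 (-0.42 ± 0.08), where 0.751% of all genes were called higher and 1.26% lower. The list summed to 3624 to 4022 CPM in control and 2924 to 3397 CPM in deficient stimulated libraries. Most of that sum was Irf4 (mean 3024 against 2361 CPM), which rose upon stimulation by 2.60 and 2.38 on the log2 scale, while Slamf7 went the other way (202 against 275 CPM) and neither was called between genotypes; the sum is therefore no measure of plasma cells. Pan-B cell markers had 0 of 10 called by edgeR between genotypes (2 unstimulated and 3 stimulated at an unadjusted p under 0.05), while upon stimulation 2 rose and 8 fell in each genotype. Over all genes stimulation called 28.5% higher and 31.8% lower in control cells, and 28.3% and 29.6% in deficient cells. The 6 follicular markers summed to 3328 to 3876 CPM in control and 2782 to 3378 CPM in deficient unstimulated libraries. After stimulation the sums were 2711 to 2944 and 2419 to 2661 CPM, and these ranges did not overlap. There 1 of 6, Fcer2a, was called lower, against 1.26% of all genes, and 3 had an unadjusted p under 0.05. Of 5 transitional markers edgeR called 0 in either state, with 2 (unstimulated) and 3 (stimulated) at an unadjusted p under 0.05. How often the sums of other gene lists separate between genotypes was not counted. The part of shifts in cell types in the receptor differences was not tested. The positive control list of BCR response genes rose in 9 of 9 genes in both genotypes. Its stimulated sums were 8808 to 9030 CPM in control and 7427 to 8644 CPM in deficient libraries, without overlap. Between genotypes the median log2 difference was -0.29 after and -0.31 without stimulation. By edgeR 1 gene was called higher and 1 lower after it, and 1 higher without it. At an unadjusted p under 0.05 these were 4 and 6 of 9. For the difference of responses 0 were called (median -0.05). The part of this in the receptor responses was not tested.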

How the data were processed

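Read counts per gene symbol were deposited by the authors for each of 13 libraries; TopHat, HTSeq and mm10 are listed, without versions, in the submitters' processing notes. The authors also deposited log2 values per library, for which these notes name DESeq2; strand setting and annotation are not given in the sources used here. The counts were tested with edgeR 4.0.16 (R 4.3.3): filterByExpr by group (minimum count 10), TMM factors, robust quasi-likelihood fit of all 13 libraries, 9 residual degrees of freedom, adjusted p threshold 0.05, tested on simulated data. A symbol with a missing cell was left out. Levels are TMM-scaled CPM.

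The labels number libraries within groups without naming animals. Sex-linked genes showed both sexes in every group, so each group holds more than 1 animal, but whether every library is a separate animal is not given; where libraries share one, p-values are too small. No 2 libraries agreed within sampling noise (chi-square per gene 7.78 to 33.5). Same-numbered libraries of a genotype deviated together (r 0.52 to 0.78 for 6 pairs, 7315 genes), so the number serves as a block between states; across genotypes r was -0.54 to -0.07.

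The 3 receptors, the naming rules and the 20 gene lists (157 of 160 entries matched) were chosen with earlier results of these data known. From each pathway list genes were named by smallest p, and the nearest genes by r (prior count 2). Genes with older symbols were matched through RefSeq synonyms. An SE is the absolute log2 difference over the root of F, and 95% intervals use 9 degrees of freedom. DESeq2 1.42.0 and limma 3.58.1 served as alternatives.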

Additional observations from a re-analysis of the deposited data

Results flagged for a closer look

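Tnfrsf13b was lower upon stimulation in 3 of 3 control pairs and higher in 3 of 3 deficient pairs. The share of all genes with such opposite signs was not counted, so the pattern may be common. The difference of responses, 0.62 on the log2 scale, missed the threshold in the edgeR fit of all 13 libraries (adjusted p = 0.268). Without deficient pair 1 it was 0.44 (adjusted p = 0.433).

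Tnfrsf13c rose in all 6 pairs, and by less in deficient cells. The difference of responses was -0.56 in the edgeR fit of all 13 libraries and missed the threshold (adjusted p = 0.0788). With the replicate block within genotype it was -0.54 and passed (adjusted p = 0.000656). It passed in 8 of the 22 alternatives, and each deficient pair showed a smaller rise than each control pair. The share of all genes whose pairs separate in this way was not counted, so this pattern too may be common.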

How the results depend on the processing

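The calls of Tnfrsf13b and Tnfrsf13c between genotypes after stimulation, of Tnfrsf13c in both responses and of Tnfrsf13b in the deficient response passed in every alternative run. The unstimulated genotype difference of Tnfrsf13b passed at 0.45 with DESeq2 size factors, 0.46 with upper-quartile factors, 0.46 with only the groups compared, 0.45 with sex as a term, 0.41 with limma on the deposited log2 values, 0.45 with DESeq2 and 0.49 without deficient pair 1. Its control response passed at -0.30 with upper-quartile factors, -0.25 with the stricter filter, -0.27 with the replicate block and -0.19 without deficient pair 1, and with 1 library left out lay between -0.30 and -0.20. Its difference of responses passed with DESeq2 (0.58). The Tnfrsf13c difference of responses passed at -0.58 with upper-quartile factors, -0.56 with no filter, -0.54 with the block, -0.55 with sex, -0.59 with DESeq2 and -0.58 without deficient pair 1; with 1 library left out it lay between -0.62 and -0.52.

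Tnfrsf17, at a few counts, passed once, for the control response with only the groups compared (-1.26). Its deficient response turned positive with the block (0.11), with limma (0.00853) and without deficient pair 1 (0.41), and lay between -0.60 and 0.61 with 1 library left out; its unstimulated genotype difference then lay between -1.12 and 0.0929.

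Genes called without stimulation between genotypes numbered 70 with upper-quartile factors, 198 with sex, 160 with DESeq2 and 74 without deficient pair 1, and 17 to 46 with 1 library left out. After stimulation they numbered 511 with sex and 539 with DESeq2, and 129 to 230 with 1 left out. The difference of responses called 12 genes with upper-quartile factors, 10 with no filter, 68 with the block, 19 with sex, 38 with DESeq2 and 13 without deficient pair 1, and 1 to 10 with 1 left out. The ratio response in deficient cells lay between -0.19 and 0.0581, and the pooled one between -0.81 and -0.45, with 1 left out. Between genotypes the block used the number alone, which pairs nothing there, and left the unstimulated Tnfrsf13b difference at 0.40. The cause of these shifts was not tested. Depth limits Tnfrsf17 and the ligand genes.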
